A study of Mus musculus with 18 samples.

Results

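NIH3T3-mCherry-mTRIM21 fibroblasts electroporated with an antibody were compared with the same cells electroporated with phosphate-buffered saline. The comparison holds 6 of the 18 samples of the series: the 3 with the source name Trim_21_IgG and the 3 with the source name Trim_21_PBS. Each group has 1 sample with each of the title numbers 10, 11 and 14, and samples are called PBS 10, IgG 10 and so on. NIH3T3 is a mouse embryonic fibroblast line, and both groups carry the mCherry-mTRIM21 genotype, a fusion of mouse TRIM21 to the red fluorescent protein mCherry. Only 1 derived line was used, and the promoter of the fusion is not stated in the labels. Per the labels' protocols, IgG samples received 7.5 µg of antibody (ab18447) in a 100 µl reaction and PBS samples received no protein. Both were given 2 pulses of 20 ms at 1400 V, and RNA was taken 16 h later. The other 12 samples, of the same line with bovine serum albumin (BSA) and of the unmodified NIH3T3 line (WT) with each treatment, serve for the estimate of spread, as reference levels and for a brief comparison with the same contrast in WT.

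TRIM21 is a cytosolic ubiquitin ligase and a receptor for the Fc part of antibodies. Antibody-coated material in the cytosol is ubiquitinated by it and degraded by the proteasome, and in infected cells its engagement is known to activate NF-kB and interferon signalling. The same binding is used experimentally to degrade an endogenous protein with an antibody against it. PBS is the control without protein, so the comparison asks what an antibody adds to electroporation in cells that hold much TRIM21. The labels do not say which protein the antibody recognises.

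No gene passed the test. Of 12140 genes tested with edgeR's quasi-likelihood test, 0 (0%) had a Benjamini-Hochberg adjusted p below the threshold of 0.05, and the smallest adjusted p was 0.724. At an unadjusted p below 0.05 there were 681 genes (5.61%). They comprised 208 genes with higher counts in IgG (1.71%) and 473 with lower counts (3.9%). A log2 fold change above 0 was found for 6274 genes (51.7%), and the median over all genes was 0.0080. The median size of a log2 fold change was 0.13, the 90th percentile 0.36 and the 99th percentile 0.76. Fitted differences of at least 2-fold were found for 29 genes on the higher side and 15 on the lower side. In 371 genes (3.06%) all 3 IgG samples lay above all 3 PBS samples, and in 716 (5.9%) all lay below.

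The intervals bound how large a difference could have been missed. The 95% interval of the fold change excluded a 2-fold difference in either direction for 11054 genes (91.1%) and a 1.5-fold difference for 8397 (69.2%). The half-width of the interval depended on the level of the gene. It had a median of 0.86 on the log2 scale for the 945 genes below 1 CPM (counts per 1e6 reads of the library), 0.53 for 1 to 5 CPM, 0.34 for 5 to 20 CPM, 0.26 for 20 to 100 CPM and 0.25 for 100 CPM and above. A 2-fold difference was excluded for 28.6% of the genes below 1 CPM and 99.1% of those at 100 CPM or above. The labels do not say whether samples of a group came from separate cultures, so p-values and intervals measure the spread between these samples, which may be technical.

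Trim21 itself checks the line. It was at 1069, 1188 and 989 CPM in PBS 10, 11 and 14 and 999, 984 and 1034 CPM in IgG 10, 11 and 14, against 6.54 to 9.73 CPM over the 9 WT samples. High Trim21 in all 6 matches their labelled genotype. Reads of the fusion cannot be told apart from those of the endogenous gene. The IgG against PBS log2 fold change of Trim21 was -0.11 ± 0.12 (SE) with all samples and -0.014 without PBS 11. Its 95% interval with all samples was -0.37 to 0.16. The 6 libraries held 20314542 to 28235764 gene-assigned reads. The cells matched their label as fibroblasts: of 11 fibroblast markers, 10 were above 1 CPM in all 6 samples, and their summed level was 16650 CPM in PBS 11 and 24170 to 28240 CPM in the other 5. Markers of leukocytes summed to 12.6 to 17.1 CPM, of epithelium to 1.48 to 2.37 CPM, of adipocytes to 0.28 to 0.50 CPM and of neural cells to 16.5 to 22.8 CPM. The muscle sum was 12.3 CPM in PBS 11 and 4.75 to 6.95 CPM in the others, and the endothelial sum was 2.61 CPM in PBS 11 and 0.74 to 1.32 CPM in the others.

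PBS 11 stood apart from every other sample of the line, including the 3 that received BSA. It was the highest of the 9 TRIM21-line samples in 3492 genes (28.8%) and the lowest in 3656 genes (30.1%), so it was at 1 end of the range in 58.9% of genes. The corresponding share was 12.6% to 24.6% for the other 8 samples. The differences between same-numbered samples show the same thing. The median size of the IgG minus PBS difference was 0.29 on the log2 scale for number 11, 0.15 for number 10 and 0.12 for number 14. Differences past 1.5-fold were found in 2467 genes for number 11, 745 for number 10 and 459 for number 14. IgG was higher at all 3 numbers in 1447 genes (11.9%) and lower at all 3 in 1711 (14.1%). The 20314542 gene-assigned reads of PBS 11 were the fewest of the 6, beside 20625267 in IgG 11. It also had the fewest genes with at least 10 reads, 11572 against 11746 to 12042 in the other 5. Its shares of reads outside genes (15.5%) and aligned to several places (38.8%) lay inside the range of the other 5.

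Gene lists for 23 pathways were used to describe the differences, with 652 of their 698 genes tested. None of the 652 passed the adjusted threshold, as over all genes (0%). At an unadjusted p below 0.05, 9 of the 652 members were higher and 40 lower, beside 1.71% and 3.9% of all genes tested. In what follows, a bracketed percentage of all genes after a list count is a background share. It is the share of all genes tested that met the same criterion in the same direction. A 2-fold difference was excluded for 609 members (93.4%) and a 1.5-fold difference for 436 (66.9%). The list medians lay between -0.29 and 0.36 on the log2 scale, and 13 of 23 were further than 0.1 from 0. The adjusted p-values of the 55 genes chosen by rule ranged from 0.724 to 0.989 by edgeR's quasi-likelihood test, so every difference given for one of them is a value with its standard error (SE) and not a call. The fits with and without PBS 11 use the same model.

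**Figure D1:**
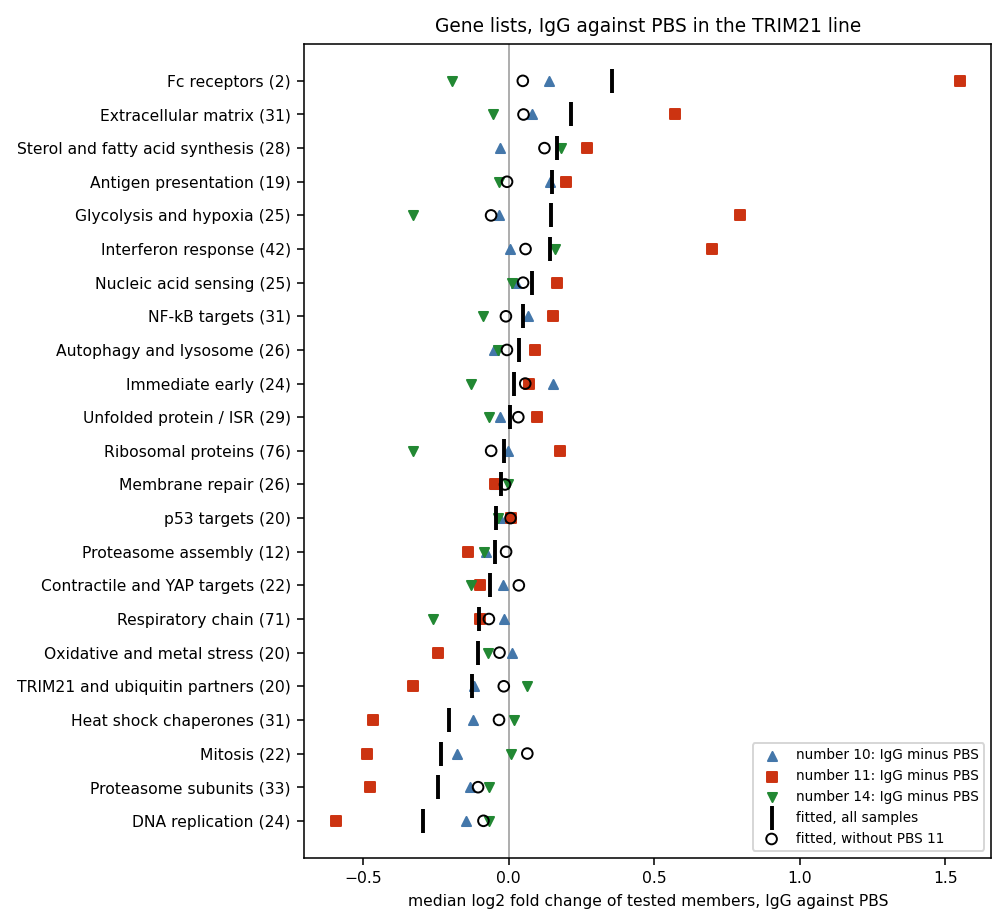
Each row is a gene list with its number of tested members, and the x axis is the median log2 fold change of IgG against PBS in the TRIM21 line. Coloured symbols are the differences between samples with the same title number (10, 11, 14), the black bar is the median of the fitted values with all samples, and the open circle is the same without PBS 11. Number 11 lies furthest from 0 in 18 of 23 lists, and only 2 open circles are further than 0.1 from 0.

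Proteasome subunit mRNAs were lower in IgG in nearly every member, by a small amount that did not pass the test. The 26S proteasome degrades ubiquitinated proteins, including those marked by TRIM21, and consists of a barrel of alpha and beta subunits and a regulatory cap of ATPases and other subunits. Of 33 subunit genes tested, 32 had lower counts in IgG, 12 of them at an unadjusted p below 0.05 (3.9% of all genes), and in 17 the 2 groups did not overlap (5.9% of all genes). The median was -0.24, with -0.13, -0.48 and -0.07 for numbers 10, 11 and 14. By role, the median was -0.29 over 7 alpha subunits, -0.17 over 7 beta subunits, -0.26 over 6 ATPases and -0.17 over 13 other cap subunits. Without PBS 11 these were -0.19, -0.078, -0.105 and -0.030. Psma2, an alpha subunit, had 168, 191 and 175 CPM in PBS 10, 11 and 14 and 148, 131 and 148 CPM in IgG 10, 11 and 14. All 3 IgG values lay below all 3 PBS values, and the log2 fold change was -0.32 ± 0.13 (SE). Psmd2, the most abundant subunit mRNA by CPM, had 433, 576 and 408 CPM in PBS 10, 11 and 14 and 404, 429.8 and 433 CPM in IgG 10, 11 and 14. Its groups overlapped, PBS 11 was the highest of the 6, and the log2 fold change was -0.16 ± 0.11 (SE) with all samples and 0.026 without PBS 11. The highest of the 9 TRIM21-line samples was PBS 11 in 32 of the 33 genes, against 28.8% of all genes. Without it the median was -0.105 and 27 of 33 genes were below 0. In that fit 0 of the 33 had an unadjusted p below 0.05, beside 93 of all 12230 genes tested. The intervals excluded a 2-fold difference for all 33 subunits and a 1.5-fold difference for 27.

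Genes that build and regulate the proteasome had smaller differences. Among 12 assembly factors, activators and regulators tested, 8 were lower and 4 higher, with a median of -0.047 with all samples and -0.0088 without PBS 11. Nfe2l1, a transcription factor that drives proteasome genes when proteasome activity is short, had 187, 180.0 and 214 CPM in PBS 10, 11 and 14 and 224, 219.8 and 202 CPM in IgG 10, 11 and 14. The ranges overlapped, and its log2 fold change was 0.15 ± 0.11 (SE). Psme3, the nuclear proteasome activator, had 172, 262 and 163 CPM in PBS 10, 11 and 14 and 163, 166 and 162 CPM in IgG 10, 11 and 14. Only PBS 11 stood out among these 6 values, and the log2 fold change of -0.28 became -0.015 without it.

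The TRIM21 pathway list holds Trim21, the ubiquitin genes, the E2 enzymes and the VCP and proteasome-bound factors that follow ubiquitination. Of its 20 genes, 19 were lower in IgG, with a median of -0.13, 2 of them at an unadjusted p below 0.05 (3.9% of all genes). Number 14 had the opposite sign, with medians of -0.12, -0.33 and 0.063 for numbers 10, 11 and 14. Uchl5, a deubiquitinase bound to the proteasome cap, had 33.0, 56.2 and 35.0 CPM in PBS 10, 11 and 14 and 30.1, 30.5 and 33.2 CPM in IgG 10, 11 and 14. PBS 11 alone lay above the other 5, which spanned 30.1 to 35.0 CPM, and the log2 fold change was -0.40 ± 0.17 (SE) with all samples and -0.10 without PBS 11. The list median without PBS 11 was -0.017, with 9 of 20 genes above 0. All 20 intervals excluded a 2-fold difference.

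Interferon response mRNAs were mostly above 0, and number 11 had the largest difference. Interferon signalling acts through transcription factors that bind the interferon-stimulated response element in the promoters of antiviral genes. Of 53 listed genes 42 were tested, and 36 had higher counts in IgG, 2 of them at an unadjusted p below 0.05 (1.71% of all genes). Genes such as Mx1, Mx2, Rsad2 and Oas2, which interferon strongly induces in most cells, had too few reads to pass the filter. The median log2 fold change was 0.14, with 0.0031, 0.70 and 0.16 for numbers 10, 11 and 14. The element was looked for in promoters as GAAA, any 2 bases and GAAA on both strands, and it was present in 14 of the 33 tested interferon genes with a RefSeq promoter (42.4%) and in 3.44% of all 32851 promoter windows of the same length (3.99% of genes). Matches are descriptions of the letters and not binding sites. The promoters of Stat2 and Ddx58, the genes of the interferon and nucleic acid sensing lists with the largest differences at 5 CPM or above, are shown from RefSeq (build GRCm38.p6), 5′ to 3′ on the strand of the gene, with the match in capitals (read on the opposite strand).
Stat2 (chr10:128270248-128270547, + strand): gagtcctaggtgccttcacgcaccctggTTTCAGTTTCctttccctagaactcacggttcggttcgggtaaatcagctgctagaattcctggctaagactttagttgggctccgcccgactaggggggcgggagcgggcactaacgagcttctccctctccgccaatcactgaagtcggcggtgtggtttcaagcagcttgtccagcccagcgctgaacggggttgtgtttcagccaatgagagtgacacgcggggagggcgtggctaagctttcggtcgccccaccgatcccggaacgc
Ddx58 (chr4:40239776-40240075, - strand): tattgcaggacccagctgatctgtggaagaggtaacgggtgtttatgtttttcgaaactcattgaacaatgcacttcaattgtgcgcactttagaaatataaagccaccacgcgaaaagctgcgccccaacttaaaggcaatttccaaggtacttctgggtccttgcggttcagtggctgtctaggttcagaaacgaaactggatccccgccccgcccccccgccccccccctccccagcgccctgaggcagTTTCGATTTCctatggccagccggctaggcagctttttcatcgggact
The median was 0.21 over the 14 members with a match and 0.29 over the 19 without. Once PBS 11 was left out, these were -0.024 and 0.090. The difference between them was not tested.

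Stat2, a signalling component of the interferon receptor pathway, had 29.5, 13.2 and 31.2 CPM in PBS 10, 11 and 14 and 29.7, 32.1 and 39.2 CPM in IgG 10, 11 and 14. The low value was PBS 11, and the other 5 spanned 29.5 to 39.2 CPM. Its log2 fold change was 0.45 ± 0.24 (SE) with all samples and 0.17 without PBS 11. Ddx58, which encodes the RNA sensor RIG-I, had 14.4, 10.2 and 15.1 CPM in PBS 10, 11 and 14 and 14.7, 17.7 and 19.6 CPM in IgG 10, 11 and 14. Here IgG 11 and IgG 14 lay above every PBS sample and IgG 10 did not. Its log2 fold change was 0.38 ± 0.17 (SE) with all samples and 0.25 without PBS 11. Ly6e, an interferon-inducible membrane protein and the most abundant mRNA of the list, lay between 192 and 246 CPM in all 6 samples. The groups overlapped throughout, with a log2 fold change of -0.037 ± 0.11 (SE) with all samples and 0.054 without PBS 11.

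Within the list the 5 guanylate-binding and related GTPases had a median of 0.28 with all samples and -0.044 without PBS 11. The 5 of the Parp, Dtx and Trim groups had 0.34 with all samples and 0.17 without it. The 5 Ifit, Ifitm and Oas genes had a median of 0.085 with all samples and 0.090 without it. The lowest of the 9 TRIM21-line samples was PBS 11 in 29 of the 42 genes, against 30.1% of all genes. Without PBS 11 the list median was 0.058 with 26 of 42 genes above 0, and without PBS 14 it was 0.37. The bounds were looser than in most lists, and many members were near 1 CPM. How far the level accounts for the width in this list was not tested. The intervals excluded a 2-fold difference for 29 of 42 genes. Among those that did not, Irf7, at 0.81 CPM on average, had an interval of -0.14 to 1.73 (a gene picked after its values were seen, as an example of the width).

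Nucleic acid sensors and adaptors, which detect foreign DNA and RNA in the cytosol, showed smaller differences. Of 25 tested, 17 were higher and 8 lower, with a median of 0.079 with all samples and 0.050 without PBS 11. Samhd1, an enzyme that breaks down deoxynucleotides and the most abundant mRNA of them, had 89.4, 112 and 73.7 CPM in PBS 10, 11 and 14 and 76.0, 82.3 and 86.2 CPM in IgG 10, 11 and 14. The highest and the lowest value were both PBS samples, and its log2 fold change was -0.17 ± 0.12 (SE) with all samples and 0.021 without PBS 11. All 25 intervals excluded a 2-fold difference.

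NF-kB target genes, which include cytokines, chemokines and the feedback inhibitors of the pathway, had a median of 0.051 over 31 tested of 46. Of them 19 were higher and 12 lower, and 0 reached an unadjusted p below 0.05, beside 5.61% of all genes. By number the medians were 0.068, 0.15 and -0.086. The 10 tested subunits and inhibitors of NF-kB itself had a median of 0.17 with 8 above 0, and 0.088 without PBS 11. Csf1, a macrophage growth factor and the most abundant member, had 543, 698 and 574 CPM in PBS 10, 11 and 14 and 528, 548 and 546 CPM in IgG 10, 11 and 14. The highest of the 6 was PBS 11 and the other 5 lay between 528 and 574 CPM, with a log2 fold change of -0.16 ± 0.11 (SE) with all samples and -0.027 without PBS 11. Bcl3, an atypical inhibitor of the pathway, had 13.1, 5.45 and 20.6 CPM in PBS 10, 11 and 14 and 18.9, 19.5 and 21.1 CPM in IgG 10, 11 and 14. PBS 11 had the lowest value, and PBS 14 lay among the IgG values. The log2 fold change of Bcl3 was 0.59 ± 0.31 (SE) with all samples and 0.25 without PBS 11. The list median without PBS 11 was -0.0094, and a 2-fold difference was excluded for 25 of 31 members. Tnf, Il1a, Il1b, Cxcl10 and Icam1 had too few reads to be tested.

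Antigen presentation genes, whose peptides come from the proteasome, had a median of 0.15, with 12 of 19 members higher and 2 at an unadjusted p below 0.05 (1.71% of all genes). The 4 genes of peptide transport and loading, Tap1, Tap2, Tapbp and Tapbpl, were all above 0, with a median of 0.33 with all samples and 0.21 without PBS 11. The 5 class I heavy chain genes had a median of 0.16 with all samples and -0.010 without. Tap1, a subunit of the peptide transporter, had 14.2, 11.5 and 17.4 CPM in PBS 10, 11 and 14 and 19.1, 21.5 and 17.5 CPM in IgG 10, 11 and 14. All IgG values lay above all PBS values, although IgG 14 and PBS 14 were close. Its log2 fold change was 0.43 ± 0.15 (SE) with all samples and 0.31 without PBS 11. Calr, the chaperone calreticulin, had 1807, 1784 and 1811 CPM in PBS 10, 11 and 14 and 1671, 1756 and 1848 CPM in IgG 10, 11 and 14, and its log2 fold change was -0.034 ± 0.12 (SE) with all samples and -0.022 without PBS 11. The list median was -0.0055 without PBS 11 and 0.28 without PBS 14. Class I genes share sequence, so the counts of single heavy chain genes are uncertain.

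Receptors for the antibody's constant part mostly had too few reads to be tested. Of 6 Fc receptor genes 2 were tested, and Fcgrt, the neonatal Fc receptor, had 38.5, 19.0 and 58.0 CPM in PBS 10, 11 and 14 and 49.1, 55.5 and 53.1 CPM in IgG 10, 11 and 14. PBS 11 had the lowest value, PBS 14 the highest, and the log2 fold change was 0.44 ± 0.28 (SE) with all samples and 0.14 without PBS 11.

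Genes of DNA replication had the most negative median, -0.29, with 23 of 24 members lower and 7 at an unadjusted p below 0.05 (3.9% of all genes). These genes are induced at the start of S phase by E2F transcription factors. By number the medians were -0.15, -0.59 and -0.067. The 6 MCM helicase subunits had a median of -0.25 with all samples and -0.036 without PBS 11. The 2 tested replication factor C subunits had -0.335 with all samples and -0.18 without it. Rrm1, a subunit of ribonucleotide reductase, had 479, 722 and 412 CPM in PBS 10, 11 and 14 and 417, 434 and 411 CPM in IgG 10, 11 and 14. In PBS 11 it was far above the other 5, and the log2 fold change was -0.35 ± 0.17 (SE) with all samples and -0.062 without it. Of the 9 samples, PBS 11 was the highest in 23 of 24 genes, against 28.8% of all genes. The list median without it was -0.087, with 20 of 24 genes below 0.

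Mitosis genes, which peak between G2 and division, had a median of -0.23 with 21 of 22 members lower. Of these, 1 reached an unadjusted p below 0.05, beside 3.9% of all genes. Without PBS 11 the median was 0.064 and 17 of 22 members were above 0. With IgG 11 left out as well, it was -0.046 and 6 of 22 were above 0. The mean level of the list was above the mean of the line in all number 11 samples, by 0.56 in PBS 11, 0.31 in BSA 11 and 0.10 in IgG 11. Cdk1, the kinase that starts mitosis, had 198, 287 and 188 CPM in PBS 10, 11 and 14 and 157, 165 and 166 CPM in IgG 10, 11 and 14. The groups did not overlap, and the log2 fold change was -0.46 ± 0.16 (SE) with all samples and -0.22 without PBS 11. Top2a, which untangles chromosomes, had 542, 767 and 469.9 CPM in PBS 10, 11 and 14 and 469, 529 and 517 CPM in IgG 10, 11 and 14. Its groups overlapped, with a log2 fold change of -0.23 ± 0.16 (SE) with all samples and 0.017 without PBS 11. E2F motifs were looked for as TTTCCCGC, TTTCGCGC, TTTGCCGC and TTTGGCGC on both strands, which can overlap each other. A match was present in 10 of 19 replication genes with a RefSeq promoter (52.6%), in 1 of 18 mitosis genes (5.56%), and in 2.26% of all promoter windows (2.6% of genes). The mitosis gene with a match was Cdk1. Its promoter is shown with that of Mcm6, a helicase subunit with 3 matches, because the replication and Cdk1 mRNAs were both highest in PBS 11. Capitals mark the matches, and those of Mcm6 include an overlapping pair on opposite strands.
Cdk1 (chr10:69352863-69353162, - strand): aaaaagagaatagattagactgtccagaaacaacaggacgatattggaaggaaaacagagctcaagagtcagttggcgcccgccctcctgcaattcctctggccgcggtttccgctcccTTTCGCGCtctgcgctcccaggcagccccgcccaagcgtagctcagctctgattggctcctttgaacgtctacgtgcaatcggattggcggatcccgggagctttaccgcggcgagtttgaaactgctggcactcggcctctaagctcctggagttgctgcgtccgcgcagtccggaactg
Mcm6 (chr1:128359656-128359955, - strand): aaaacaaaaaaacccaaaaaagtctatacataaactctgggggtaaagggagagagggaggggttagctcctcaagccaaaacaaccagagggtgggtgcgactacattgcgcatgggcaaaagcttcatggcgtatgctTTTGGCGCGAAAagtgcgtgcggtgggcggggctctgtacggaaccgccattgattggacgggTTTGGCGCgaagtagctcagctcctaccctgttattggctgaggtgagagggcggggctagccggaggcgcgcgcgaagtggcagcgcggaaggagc
Replication genes with a match had a median of -0.24 and those without -0.32. The difference between them was not tested.

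**Figure D2:**
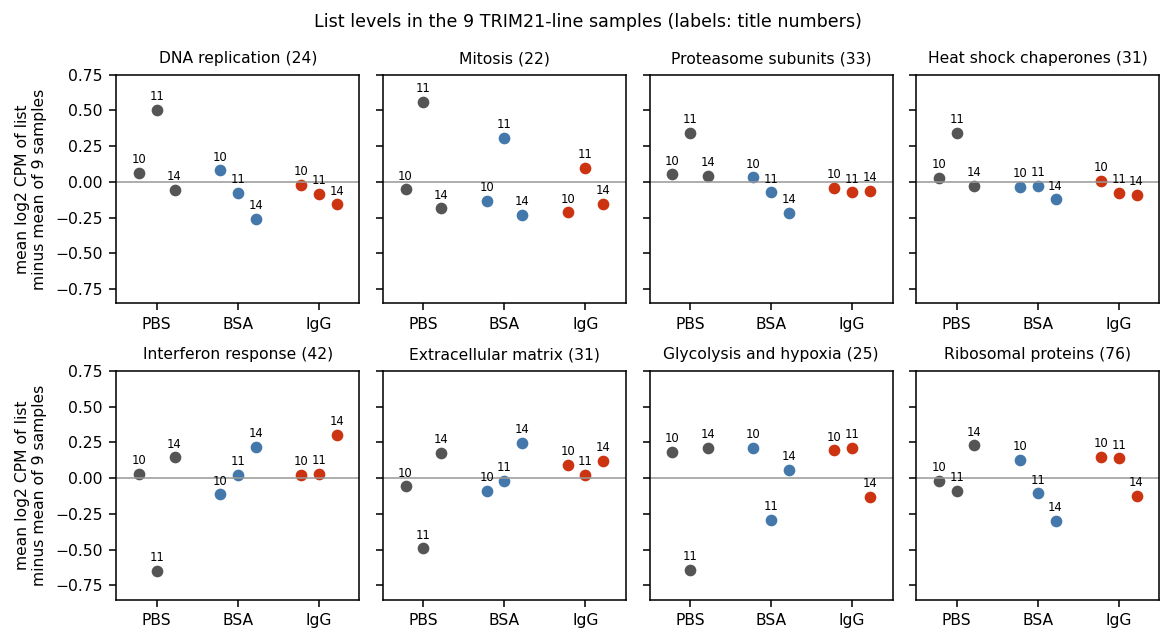
Each panel is 1 gene list with its number of tested members, and each point is 1 sample of the TRIM21 line, labelled with its title number. The y axis is the mean log2 CPM of the list minus its mean over the 9 samples. PBS 11 is the highest point in the replication, mitosis, proteasome and heat shock panels, the lowest in the interferon, matrix and glycolysis panels, and inside the range for ribosomal proteins.

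The sample levels give the size of that departure. For replication genes PBS 11 lay 0.57 above the mean of the other 8 samples, which spanned -0.26 to 0.082 around the mean of 9. For interferon genes it lay 0.73 below the mean of the other 8. The other 2 PBS samples and the 3 IgG samples lay close together, between -0.16 and 0.064 for replication and between 0.021 and 0.30 for interferon. PBS 11 was outside the range of the other 8 in 17 of 23 lists, above it in 8 and below it in 9.

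Heat shock chaperones, which refold damaged proteins, had a median of -0.21 with 27 of 31 members lower. At an unadjusted p below 0.05, 6 were lower (3.9% of all genes) and 1 was higher (1.71% of all genes). Without PBS 11 the median was -0.033. All 8 subunits of the cytosolic chaperonin TRiC were lower, with a median of -0.23 with all samples and -0.055 without PBS 11. Hspe1, the mitochondrial co-chaperonin, had 84.5, 122 and 88.4 CPM in PBS 10, 11 and 14 and 78.0, 64.6 and 72.2 CPM in IgG 10, 11 and 14. The groups did not overlap, with a log2 fold change of -0.46 ± 0.15 (SE) with all samples and -0.25 without PBS 11. Hsp90ab1, the constitutive cytosolic HSP90, had 4482, 4831 and 4217 CPM in PBS 10, 11 and 14 and 4260, 4250 and 4201 CPM in IgG 10, 11 and 14. Its interval of -0.30 to 0.12 excluded a difference of 1.5-fold. For 30 of 31 chaperone genes a 2-fold difference was excluded.

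The unfolded protein and integrated stress responses, which reduce protein load in the endoplasmic reticulum, had a median of 0.0043 over 29 members with 15 above 0, and 0.033 with 18 above 0 without PBS 11. Hsp90b1, the HSP90 of the endoplasmic reticulum, had 1636, 1316 and 1645 CPM in PBS 10, 11 and 14 and 1408, 1560 and 1599 CPM in IgG 10, 11 and 14, with a log2 fold change of -0.009 ± 0.13 (SE) with all samples and -0.088 without PBS 11. Cebpb, a transcription factor of stress and inflammatory responses, had the smallest unadjusted p of the higher genes named here. It was at 27.3, 23.4 and 35.2 CPM in PBS 10, 11 and 14 and 38.4, 46.8 and 44.9 CPM in IgG 10, 11 and 14. All 3 IgG samples lay above all 3 PBS samples. The log2 fold change of Cebpb was 0.59 ± 0.15 (SE), the interval was 0.28 to 0.91 and the edgeR adjusted p was 0.724. Without PBS 11 it was 0.49. In the WT line the log2 fold change of Cebpb was 0.00018, and the difference between the lines, 0.59, had an edgeR adjusted p of 0.972.

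Genes of oxidative and metal stress had a median of -0.10 with all samples and -0.031 without PBS 11, with 14 of 20 lower in the first. Fth1, the ferritin heavy chain, had 1608, 2468 and 1782 CPM in PBS 10, 11 and 14 and 1631, 1657 and 1732 CPM in IgG 10, 11 and 14. The high value was PBS 11 and the other 5 spanned 1608 to 1782 CPM, with a log2 fold change of -0.22 ± 0.13 (SE) with all samples and -4.5e-05 without PBS 11. Nqo1, a quinone reductase induced by NRF2, had 35.9, 92.7 and 29.5 CPM in PBS 10, 11 and 14 and 39.8, 38.5 and 30.4 CPM in IgG 10, 11 and 14. PBS 11 stood far above every other sample, and the log2 fold change was -0.54 ± 0.29 (SE) with all samples and 0.17 without it. Targets of p53 had a median of -0.043 over 20 members with all samples and 0.0063 without PBS 11. With all samples 1 was higher (1.71% of all genes) and 1 lower (3.9%) at an unadjusted p below 0.05. Ccng1, a cyclin induced by p53, had 349.7, 387 and 254 CPM in PBS 10, 11 and 14 and 294, 314 and 294 CPM in IgG 10, 11 and 14, and its log2 fold change was -0.14 ± 0.16 (SE) with all samples and 0.014 without PBS 11. The death receptor gene Fas had 5.61, 3.40 and 4.58 CPM in PBS 10, 11 and 14 and 6.31, 6.03 and 6.37 CPM in IgG 10, 11 and 14. Its groups did not overlap, with a log2 fold change of 0.46 ± 0.21 (SE) with all samples and 0.32 without PBS 11.

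**Figure D3:**
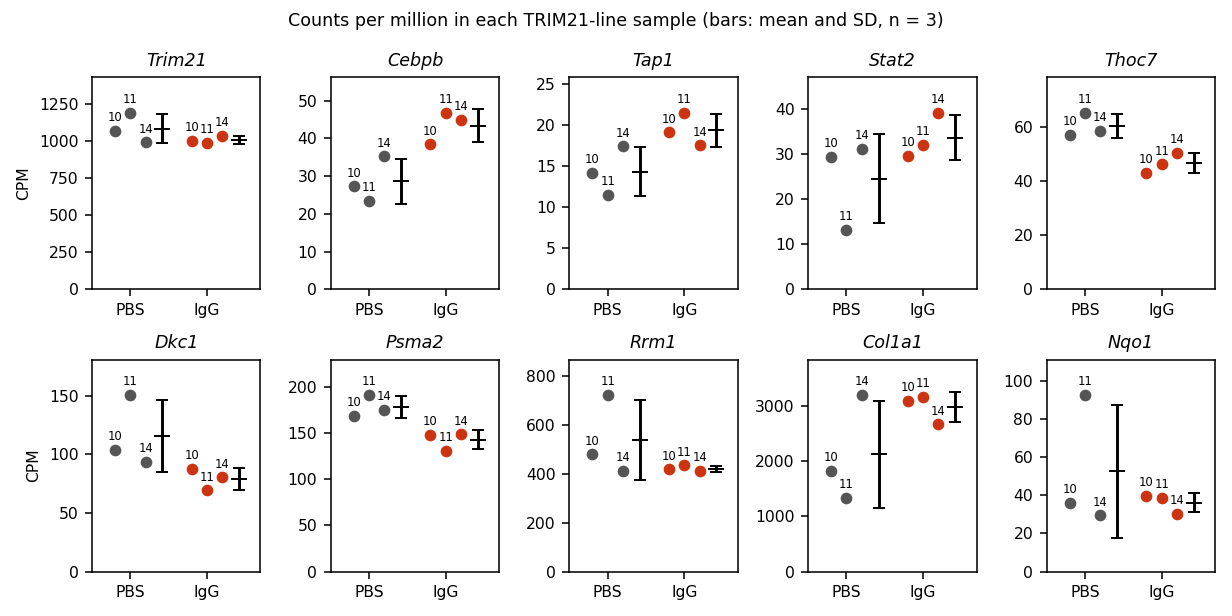
CPM of 10 genes in the 3 PBS and 3 IgG samples of the TRIM21 line, labelled with their title numbers, with the mean and SD of each group (n = 3) beside the points. PBS 11 is the highest or the lowest of the 3 PBS values in all 10 panels, and the PBS and IgG points do not overlap for Cebpb, Tap1, Thoc7, Dkc1 and Psma2.

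Immediate early genes, which respond to stimuli within minutes and are back at baseline hours later, had a median of 0.017 with 13 of 24 higher, and 0.057 with 15 of 24 higher without PBS 11. Fosl2, their most abundant member, had 379, 261 and 376 CPM in PBS 10, 11 and 14 and 378, 402 and 417 CPM in IgG 10, 11 and 14, and its log2 fold change was 0.24 ± 0.14 (SE) with all samples and 0.099 without PBS 11. Junb had 10.9, 7.90 and 23.2 CPM in PBS 10, 11 and 14 and 31.6, 19.0 and 14.8 CPM in IgG 10, 11 and 14. Both groups spanned wide and overlapping ranges, and its interval of -0.32 to 1.57 left a 2-fold difference possible. Its log2 fold change was 0.63 with all samples and 0.36 without PBS 11. Membrane repair genes, among them annexins that seal wounded plasma membrane, had a median of -0.027 over 26 with all samples and -0.013 without PBS 11. All 26 excluded a 2-fold difference and 23 a 1.5-fold difference. Anxa2 had 3332, 3047 and 3201 CPM in PBS 10, 11 and 14 and 3099, 3081 and 2771 CPM in IgG 10, 11 and 14, with a log2 fold change of -0.098 ± 0.12 (SE). Anxa3 had 249, 340.5 and 185 CPM in PBS 10, 11 and 14 and 218, 204 and 159.6 CPM in IgG 10, 11 and 14. The highest of these values was PBS 11, and the log2 fold change was -0.41 ± 0.21 (SE) with all samples and -0.14 without it. Autophagy and lysosome genes had a median of 0.036 over 26 with 16 higher, and -0.0059 with 11 higher without PBS 11. Ctsl, the lysosomal protease cathepsin L, had 1890, 1404 and 1760 CPM in PBS 10, 11 and 14 and 1726, 1411 and 1722 CPM in IgG 10, 11 and 14. The number 11 samples were the lowest of both groups, and the log2 fold change was -0.057 ± 0.14 (SE) with all samples and -0.15 without PBS 11. Calcoco1, an autophagy receptor, had 26.6, 9.80 and 42.8 CPM in PBS 10, 11 and 14 and 31.8, 36.5 and 40.0 CPM in IgG 10, 11 and 14, with 0.44 ± 0.35 (SE) on the log2 scale and 0.069 without PBS 11.

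For glycolysis and hypoxia genes the direction depended on PBS 11. Their median was 0.15 with 22 of 25 members higher, and -0.060 with 6 of 25 higher without PBS 11. By number the medians were -0.034, 0.80 and -0.33. PBS 11 was the lowest of the 9 samples in 21 of 25 genes, against 30.1% of all genes. Pkm, which encodes pyruvate kinase, had 4432, 3282 and 5183 CPM in PBS 10, 11 and 14 and 4939, 5184 and 4292 CPM in IgG 10, 11 and 14. Its log2 fold change was 0.16 ± 0.18 (SE) with all samples and 0.017 without PBS 11. Pfkl, a phosphofructokinase, had 546, 364 and 709 CPM in PBS 10, 11 and 14 and 689, 756 and 542 CPM in IgG 10, 11 and 14. IgG 14 lay within the PBS range for both, and the log2 fold change of Pfkl was 0.30 ± 0.24 (SE) with all samples and 0.096 without PBS 11.

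Extracellular matrix genes, the main secretory product of fibroblasts, had a median of 0.21 with 25 of 31 members higher. The 11 collagen genes were all above 0, with a median of 0.34 with all samples and 0.14 without PBS 11. Col1a1, the alpha1 chain of type I collagen, had 1827, 1342 and 3203 CPM in PBS 10, 11 and 14 and 3100, 3166 and 2671 CPM in IgG 10, 11 and 14. PBS 14 was the highest of the 6, and the log2 fold change was 0.49 ± 0.29 (SE) with all samples and 0.26 without PBS 11. Lox, which cross-links collagen, had 4964, 2857 and 5313 CPM in PBS 10, 11 and 14 and 4462, 5618 and 5982 CPM in IgG 10, 11 and 14. PBS 11 alone was clearly below the rest, and the log2 fold change was 0.29 ± 0.23 (SE) with all samples and 0.079 without it. The list median without PBS 11 was 0.051. Contractile and YAP target genes had a median of -0.063, with 5 of 22 lower at an unadjusted p below 0.05 (3.9% of all genes). Without PBS 11 the median was 0.035 and 13 of 22 were above 0. In that fit 0 of the 22 had an unadjusted p below 0.05, beside 93 of all 12230 genes tested. Ctgf, a secreted YAP target, had 93.5, 168 and 84.6 CPM in PBS 10, 11 and 14 and 86.9, 72.1 and 65.9 CPM in IgG 10, 11 and 14. PBS 11 had the highest value, and the log2 fold change was -0.62 ± 0.21 (SE) with all samples and -0.23 without it. Actb had 4063, 5862 and 4162 CPM in PBS 10, 11 and 14 and 4456, 5873 and 4287 CPM in IgG 10, 11 and 14. Both number 11 samples were the high ones, and the log2 fold change was 0.053 ± 0.17 (SE) with all samples and 0.26 without PBS 11.

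Sterol and fatty acid synthesis kept 74.9% of its median without PBS 11. Its genes are controlled by the SREBP transcription factors. The median was 0.17 with 25 of 28 members higher, and 0.12 with 26 of 28 higher without PBS 11. By number it was -0.029, 0.27 and 0.18. Scd2, a stearoyl-CoA desaturase, had 1998, 1304 and 2122 CPM in PBS 10, 11 and 14 and 1982, 2321 and 2370 CPM in IgG 10, 11 and 14. PBS 11 had the lowest value, IgG 11 and IgG 14 the highest, and the log2 fold change was 0.30 ± 0.15 (SE) with all samples and 0.13 without PBS 11. Mvd, an enzyme of the mevalonate pathway, had 20.8, 15.7 and 28.3 CPM in PBS 10, 11 and 14 and 24.3, 32.1 and 29.5 CPM in IgG 10, 11 and 14. The ranges overlapped, with a log2 fold change of 0.40 ± 0.20 (SE) with all samples and 0.24 without PBS 11. None of the 28 reached an unadjusted p below 0.05, beside 5.61% of all genes, and all 28 excluded a 2-fold difference.

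Respiratory chain genes had a median of -0.10 over 71, and 54 were lower. By number the medians were -0.016, -0.098 and -0.26, so number 14 was the furthest from 0. Without PBS 11 the median was -0.068 with 61 of 71 below 0. The same contrast in the WT line had a similar median of -0.096, with 15 of 71 genes above 0. In 18 genes of the TRIM21 line the IgG samples were all below the PBS samples, against 5.9% of all genes. The medians by complex were -0.090 for complex I, -0.16 for II, -0.15 for III, -0.12 for IV and -0.13 for the ATP synthase, and without PBS 11 they were -0.067, -0.13, -0.043, -0.11 and -0.074. Atp5b, the catalytic ATP synthase subunit, had 1732, 1886 and 1678 CPM in PBS 10, 11 and 14 and 1561, 1613 and 1645 CPM in IgG 10, 11 and 14. The groups did not overlap, and the log2 fold change was -0.14 ± 0.10 (SE) with all samples and -0.067 without PBS 11. Ndufb7 of complex I was among the 17 of 71 genes that were higher. It had 32.5, 31.0 and 51.3 CPM in PBS 10, 11 and 14 and 54.0, 50.4 and 38.7 CPM in IgG 10, 11 and 14. Its log2 fold change was 0.32 ± 0.30 (SE) with all samples and 0.20 without PBS 11. Ribosomal protein genes had a median of -0.017 over 76, with -0.0038, 0.18 and -0.33 by number, and -0.060 without PBS 11. Rplp0 had 2719, 2423 and 3489 CPM in PBS 10, 11 and 14 and 3353, 3810 and 2862 CPM in IgG 10, 11 and 14, with a log2 fold change of 0.22 ± 0.22 (SE) with all samples and 0.12 without PBS 11. Rplp1 had 632, 593 and 1346 CPM in PBS 10, 11 and 14 and 1782, 1219 and 767 CPM in IgG 10, 11 and 14. Both Rplp1 groups spanned a wide range, the interval was -0.41 to 1.51, and the log2 fold change was 0.55 with all samples and 0.36 without PBS 11. Ribosomal protein genes have many processed copies in the genome, so their counts are uncertain.

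**Figure D4:**
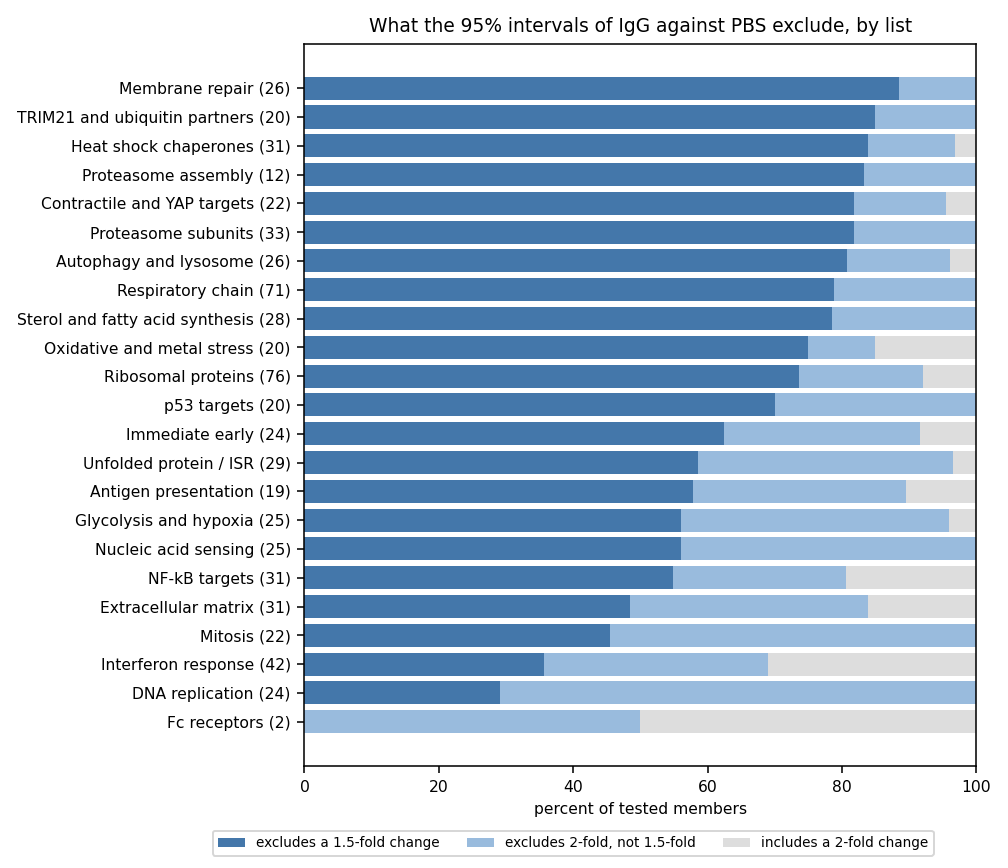
For each gene list, the bar splits the tested members (number in brackets) by what the 95% interval of the IgG against PBS fold change excludes. The x axis is the percentage of tested members. All members of the proteasome, replication, mitosis and sterol lists exclude a 2-fold difference, and 29 of 42 interferon genes do.

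Over all genes, listed or not, those with the smallest p at 5 CPM or above that had the same direction at all 3 numbers were examined. None passed the adjusted threshold. On the higher side these were Cebpb, Mn1, Grik5, Zhx2, Neurl1a and Tap1. Mn1, a transcriptional co-regulator, had 48.3, 43.7 and 56.7 CPM in PBS 10, 11 and 14 and 63.0, 73.8 and 56.7 CPM in IgG 10, 11 and 14. IgG 14 and PBS 14 were nearly equal, and the log2 fold change was 0.38 ± 0.12 (SE). Grik5, a kainate receptor subunit, had 6.37, 5.25 and 10.9 CPM in PBS 10, 11 and 14 and 12.3, 12.7 and 11.1 CPM in IgG 10, 11 and 14. Again IgG 14 and PBS 14 were close, and the log2 fold change was 0.67 ± 0.22 (SE). Zhx2, a zinc finger and homeobox repressor, had 8.27, 6.05 and 8.97 CPM in PBS 10, 11 and 14 and 10.2, 11.3 and 11.3 CPM in IgG 10, 11 and 14. Its groups did not overlap, and the log2 fold change was 0.49 ± 0.16 (SE). Neurl1a, an E3 ubiquitin ligase, had 4.75, 4.25 and 5.65 CPM in PBS 10, 11 and 14 and 6.79, 7.91 and 5.70 CPM in IgG 10, 11 and 14, with a log2 fold change of 0.47 ± 0.16 (SE).

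The lower genes were Thoc7, Dkc1, Fam216a, Tceb1, Cetn3 and Nop58. Thoc7, a subunit of the mRNA export complex THO, had 57.0, 65.1 and 58.6 CPM in PBS 10, 11 and 14 and 43.0, 46.1 and 50.5 CPM in IgG 10, 11 and 14. The groups did not overlap, and the log2 fold change was -0.37 ± 0.097 (SE) with all samples and -0.29 without PBS 11. Dkc1, the pseudouridine synthase dyskerin, had 104, 151 and 93.5 CPM in PBS 10, 11 and 14 and 87.6, 69.4 and 80.3 CPM in IgG 10, 11 and 14. Its log2 fold change was -0.55 ± 0.15 (SE) with all samples and -0.30 without PBS 11. Nop58, a core protein of box C/D nucleolar particles, had 272, 338 and 266 CPM in PBS 10, 11 and 14 and 230.4, 192 and 240.3 CPM in IgG 10, 11 and 14. Its groups did not overlap, and the log2 fold change was -0.40 ± 0.12 (SE) with all samples and -0.26 without PBS 11. Tceb1, which encodes elongin C, had 70.4, 91.4 and 66.3 CPM in PBS 10, 11 and 14 and 54.7, 53.1 and 60.8 CPM in IgG 10, 11 and 14. All 3 IgG values were below all 3 PBS values, with a log2 fold change of -0.44 ± 0.12 (SE) with all samples and -0.26 without PBS 11. Cetn3, a centriole protein, had 69.4, 74.5 and 72.1 CPM in PBS 10, 11 and 14 and 53.3, 55.2 and 63.0 CPM in IgG 10, 11 and 14, and Fam216a had 30.7, 36.9 and 31.5 CPM in PBS 10, 11 and 14 and 26.7, 24.8 and 26.8 CPM in IgG 10, 11 and 14. Their log2 fold changes were -0.33 ± 0.096 (SE) and -0.34 ± 0.092 (SE). In the WT line the fitted log2 fold changes of all 6 lower genes were also below 0. They ran from -0.36 for Nop58 and -0.31 for Cetn3 to -0.15 for Tceb1. For the higher genes the WT values were -0.0029 for Neurl1a, 0.00018 for Cebpb, 0.0019 for Tap1, 0.033 for Grik5 and 0.22 for Mn1 and Zhx2.

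In all 12 of these genes PBS 11 was at 1 end of the 9 TRIM21-line samples, and all 12 fitted differences were smaller without it. Of the 12, 11 had an unadjusted p below 0.05 in the fit without PBS 11. They were picked for a small p with all samples, and both fits share all samples except PBS 11. This count therefore follows in part from the choice and is no separate support for the 12. Over all 55 genes chosen by rule PBS 11 was the highest of 9 in 26 and the lowest in 23. The shares over all genes were 28.8% and 30.1%. Without PBS 11, 50 of the fitted differences were smaller. Many of the 55 were picked for a large difference or a small p with all samples, so these counts follow in part from the choice. For 46 of the 55 a 2-fold difference was excluded.

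Leaving out PBS 11 removed most of the small p-values. In the refit without it, 93 of 12230 genes tested had an unadjusted p below 0.05, in place of 681 of 12140. Among the 93 were 60 of the 681 (8.81%) with the same direction, 31 higher and 29 lower. With a replicate block and without PBS 11, 157 of the 681 (23.1%) were kept. The median size of a log2 fold change was 0.083. Of the 49 list members with an unadjusted p below 0.05, 3 kept one: Cebpb and the respiratory chain genes Cox7a2 and Ndufa5. Of the 23 list medians 20 were smaller, 16 were under 0.5 of their size and 7 had the other sign. The median size of a list median was 0.105 with all samples and 0.049 without PBS 11, and the lists further than 0.1 from 0 went from 13 to 2, proteasome subunits and sterol synthesis. Leaving out any of the other 5 samples gave 247 to 2374 genes at an unadjusted p below 0.05. These held 27.8% to 92.2% of the 681 with the same direction. The lowest count was without IgG 11 and the highest without PBS 14, where 2374 genes and a smallest edgeR adjusted p of 0.197 were found. Leaving out PBS 11 and IgG 11 together gave 53 genes. Of the list medians, 20 were then smaller than with all samples, 11 were under 0.5 of their size and 5 had the other sign. No omission gave a gene with an adjusted p below 0.05 by edgeR.

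**Figure D5:**
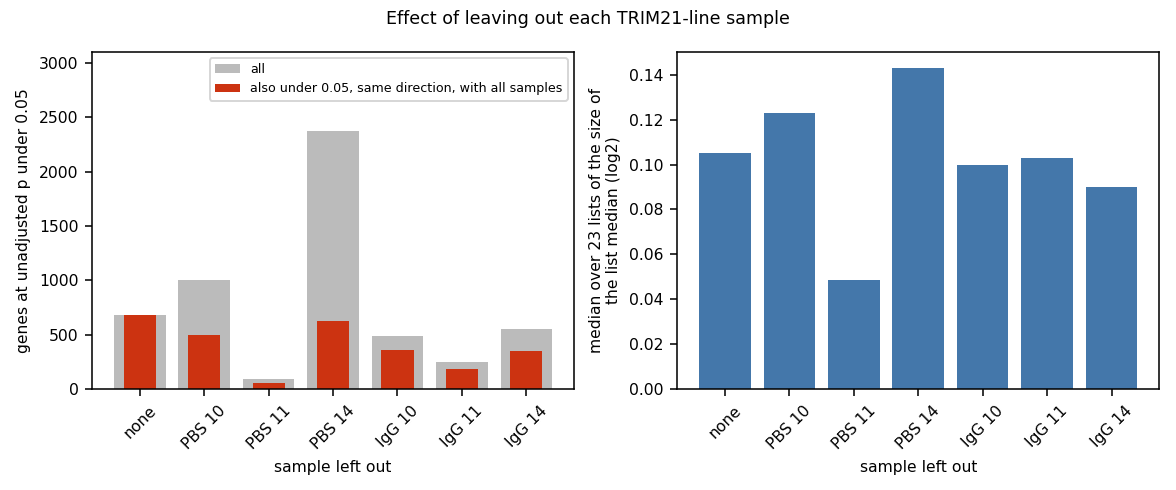
The left panel gives the number of genes at an unadjusted p below 0.05 when no sample or 1 TRIM21-line sample is left out, and the red part gives those that also had one with all samples and the same direction. The right panel gives the median over 23 lists of the size of the list median on the log2 scale. The count is 93 without PBS 11 and 2374 without PBS 14, and the list value is 0.049 without PBS 11 and 0.14 without PBS 14.

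The bounds were not loosened by leaving out PBS 11: a 2-fold difference was then excluded for 11181 of 12230 genes tested (91.4%). In the WT line the same comparison also gave 0 genes below the adjusted threshold, with 325 at an unadjusted p below 0.05 and a smallest edgeR adjusted p of 1. The difference between the lines had 0 genes (0%) below the adjusted threshold and 221 (1.82%) at an unadjusted p below 0.05, with a smallest adjusted p of 0.972. The medians in WT were -0.041 for interferon, -0.018 for NF-kB targets, -0.037 for proteasome subunits and -0.065 for antigen presentation, against 0.14, 0.051, -0.24 and 0.15 in the TRIM21 line. The differences between the lines in these list medians were not tested.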

How the data were processed

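The deposited values are raw read counts per gene symbol, 1 file per sample. Per the submitters' processing notes, reads were processed with bcl2fastq 2.19.1.403, FastQC 0.11.5, STAR 2.5.1b, HTSeq 0.6.0 and DESeq2 1.6.3 with the mouse build mm10, and per the labels' protocols the libraries were strand-specific and polyA-enriched. Counting leaves out reads that fit several places or genes, so genes with near-identical copies are counted from their distinct sequence.

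Rows that name no gene stayed out of library sizes and tests: over the 18 samples, reads outside genes were 13.2% to 18.9% of those plus the gene counts. Counts were analysed in R 4.3.3 with edgeR 4.0.16. Of 24062 genes, 12140 passed filterByExpr (minimum count 10, minimum total 15). The quasi-likelihood fit took all 18 samples, with TMM factors, 6 group means and no replicate term, so that the groups not compared share the estimate of spread. Adjustment of p-values was over all genes tested. The SE is the size of the log2 fold change divided by the root of the F statistic, and the 95% interval uses the t quantile of the fit. CPM values use TMM factors. Differences by title number are differences of log2 CPM with a prior count of 2. List values are medians over tested members, with no test.

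Named genes are Trim21, the member of each of the 23 lists with most CPM, the member at 5 CPM or above with the largest difference, and the 6 genes with the smallest p in each direction at 5 CPM or above with the same direction at all 3 numbers. Among the 55 genes so chosen, 1 is not reported here. The comparison, the lists and the markers were chosen with earlier results of these data known. Splits of a list by role were made after seeing the data. Symbols were matched to GENCODE gene names for positions and GC content, 22750 directly, 914 by synonym and 398 not at all. RefSeq promoters were looked up separately by symbol or alias. Alternatives were other size factors and filters, limma 3.58.1 (voom), DESeq2 1.42.0, a replicate block, only the 6 samples, and leaving out each sample. A GC content offset (GC known for 99.35% of genes tested), alone or without PBS 11, and the block without PBS 11 were added after seeing the data.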

Additional observations from a re-analysis of the deposited data

Results flagged for a closer look

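For 3 lists the mean log2 level of every IgG sample of the TRIM21 line lay on 1 side of the PBS mean and every IgG sample of the WT line on the opposite side. These differences between the lines were not tested. For the TRIM21 and ubiquitin partner list the IgG samples lay -0.168 to -0.0822 from the PBS mean in the TRIM21 line and 0.0156 to 0.0612 in WT, a difference of -0.156. For antigen presentation they lay 0.111 to 0.228 in the TRIM21 line and -0.13 to -0.0271 in WT, a difference of 0.233. For membrane repair they lay -0.0337 to -0.0216 in the TRIM21 line and 0.00895 to 0.0526 in WT, a difference of -0.0586. Each TRIM21 value rests on a PBS mean that includes PBS 11. The fitted list medians in the TRIM21 line without PBS 11 were -0.017, -0.0055 and -0.013.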

How the results depend on the processing

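No gene had an adjusted p below 0.05 under any of the 16 planned or 3 added alternatives, and 41 of the 55 named genes kept their direction in all of them. The count at an unadjusted p below 0.05 was 294 with only the 6 samples compared, 426 with these and a replicate block, 118 with the GC offset and without PBS 11, and 53 to 2374 when 1 sample or both number 11 samples were left out. With the replicate block on all samples it was 1419, with the GC offset as well 1791, and with the block and without PBS 11 it was 227. The main fit did not treat the numbers as a pairing, and the labels do not say what they mark. Deviations of same-numbered IgG and PBS samples had correlations of 0.103, 0.125 and 0.0677 for numbers 10, 11 and 14, 2 of 3 over 0.1. The mean correlation was 0.0986 for the same number and -0.0512 for different numbers. Whether samples with the same number share an effect was not tested. The antigen presentation median ran from -0.0055 to 0.283 over the omissions, and was 0.0613 with the GC offset alone, 0.0485 with the block and the GC offset, and -0.0232 with the GC offset and without PBS 11. The GC offset alone moved the glycolysis, NF-kB target and contractile medians from 0.147, 0.0508 and -0.0628 to 0.099, 0.0315 and -0.0981. Hsp90b1 took the other sign with 0.0396 (block with GC offset), 0.002 (only 6 samples), 0.00759 (6 samples with the block) and 0.033 (GC offset). With the GC offset and without PBS 11, values of the other sign were 0.0136 for Samhd1, 0.00638 for Psmd2, 0.182 for Nqo1, 0.0542 for Ccng1, -0.00257 for Calcoco1, 0.0413 for Top2a and -0.0838 for Pkm. With the block and without PBS 11 they were 0.0313 for Ly6e, 0.00211 for Psmd2, 0.107 for Nqo1 and 0.0256 for Ccng1. Over the omissions the range was -0.123 to 0.0553 for Ly6e, -0.302 to 0.0206 for Samhd1, -0.252 to 0.0262 for Psmd2, -0.0649 to 0.00164 for Calr, -0.109 to 0.0556 for Hsp90b1, -0.353 to 0.00446 for Fth1, -0.83 to 0.171 for Nqo1, -0.286 to 0.0144 for Ccng1, -0.153 to 0.0421 for Ctsl, -0.371 to 0.0173 for Top2a, -0.0438 to 0.328 for Pkm, -0.0136 to 0.554 for Pfkl and -0.0946 to 0.264 for Actb. The cause of these sign changes was not tested. Depth limits the genes below 1 CPM, of which 28.6% excluded a 2-fold difference. The GC content of a gene was correlated with a sample's deviation from the mean of the line, with -0.541, -0.121 and 0.429 for PBS 10, 11 and 14 and 0.338, 0.446 and -0.044 for IgG 10, 11 and 14, and its part in the differences was not tested beyond the offset.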
